A study of Rattus norvegicus with 6 samples.

Results

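Mitochondrial ribosomal protein genes were described in the lumbar spinal cord of rats given lidocaine intrathecally, that is, into the fluid that surrounds the cord. They were taken as all genes whose only symbol on the array began with Mrpl or Mrps and a number, and 78 of the 20530 named genes met this. Of the 78, 72 carry symbols of ribosomal protein genes, Mrps36 by symbol only, and 6 are pseudogenes or copies. The lidocaine group held 3 Sprague-Dawley rats injected with 20 µL of a 10% solution of this local anaesthetic. The control group held 3 Sprague-Dawley rats that received no treatment and no injection, so the drug and the injection cannot be told apart. Cord from L2 to L6 was taken on day 4 in both groups, and each rat gave 1 array.

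Mitochondria carry their own ribosome, the mitoribosome, which translates the few proteins encoded by mitochondrial DNA, all of them subunits of the oxidative phosphorylation complexes. Its RNAs come from mitochondrial DNA, but its proteins are encoded in the nucleus, made in the cytosol and imported. Some of these proteins have counterparts in the bacterial ribosome, and others were added in mitochondria. Nervous tissue depends heavily on oxidative phosphorylation.

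Values are log2 RMA summaries of whole-cord RNA, so a level is relative to all else on its array and 1 unit is a doubling. The median of the named genes was 4.61 to 4.66 on the lidocaine arrays and 4.56 to 4.59 on the control arrays. Arrays correlated at 0.994 to 0.996 within a group and at 0.987 to 0.992 between groups across all transcript clusters, which are not independent replicates. Neuron markers averaged 8.28, 8.19 and 7.90 in the lidocaine rats and 8.62, 8.62 and 8.56 in the control rats, and the oligodendrocyte markers averaged 8.26 or more on every array, as fits the labelled tissue. The mean 95th percentile of the negative-control probes was 5.94, and 20 of the 78 genes averaged at or above it. The other 58 lay among the brighter negative controls, where changes can be understated.

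After lidocaine, 22 of the 78 mitochondrial ribosomal protein genes fell and 0 rose (limma, Benjamini-Hochberg adjusted p under 0.05 over all 20530 genes). The falls were small, 1.18-fold to 1.38-fold, with adjusted p of 0.00635 to 0.0479. This is 28.2% of the genes, where 14.0% of all tested genes fell and 9.70% rose. Falls were commoner among brighter genes in general: 21.3% of the 12926 genes at least as bright as the dimmest member fell and 12.1% rose, and weighting to the members' own brightness gave 20.1%. The median log2 change was −0.16 over the 78 genes, against −0.01 over all tested genes and −0.06 over those of like brightness. With the arrays centred on the positive-control probes, a scaling chosen after seeing the data, the direction of the list flipped to a median of 0.026, with 2 genes fallen (Mrpl47 and Mrps36) and 2 risen (Mrps6 and Mrpl23). Under that scaling 2.56% of the members fell and 2.56% rose, against 4.71% and 30.2% of all genes, and the median of all genes was 0.17. The positive-control probes had medians of 6.70, 6.74 and 6.69 on the lidocaine arrays and 6.90, 6.96 and 6.82 on the control arrays.

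Of the 78 log2 changes, 70 were below 0 and 8 above. In 42 genes (53.8%) all lidocaine rats lay below all control rats, and in 0 genes did they all lie above, while 24.6% of all tested genes, and 35.8% of those in the members' brightness range, had all lidocaine rats lower and 15.9% of all had them all higher. All 22 genes that passed had no overlap between the groups. They were picked by a test on these same values, so this adds no separate support. The mean over the 78 genes was 5.40, 5.46 and 5.33 in the lidocaine rats and 5.58, 5.59 and 5.52 in the control rats, so the 2 ranges did not meet. Of the 20 genes at or above the bright end of the negative controls 7 fell, and of the 58 below it 15 fell. Among all genes, 25.6% fell at levels of 5.635 to 6.17, 29.7% at 6.171 to 6.873 and 34.5% at 6.873 to 11.56. The share of 7 in 20 was thus near that of all genes as bright. With dim genes left out of the test, 12 of these 20 fell (60%), against 37.1% of all genes kept. At levels of 3.23 to 6.17, which span the 58, 4.29% to 25.6% of all genes fell, with larger shares at brighter levels. In bulk tissue, fewer cells of a type and less RNA per cell cannot be told apart.

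**Figure D1:**
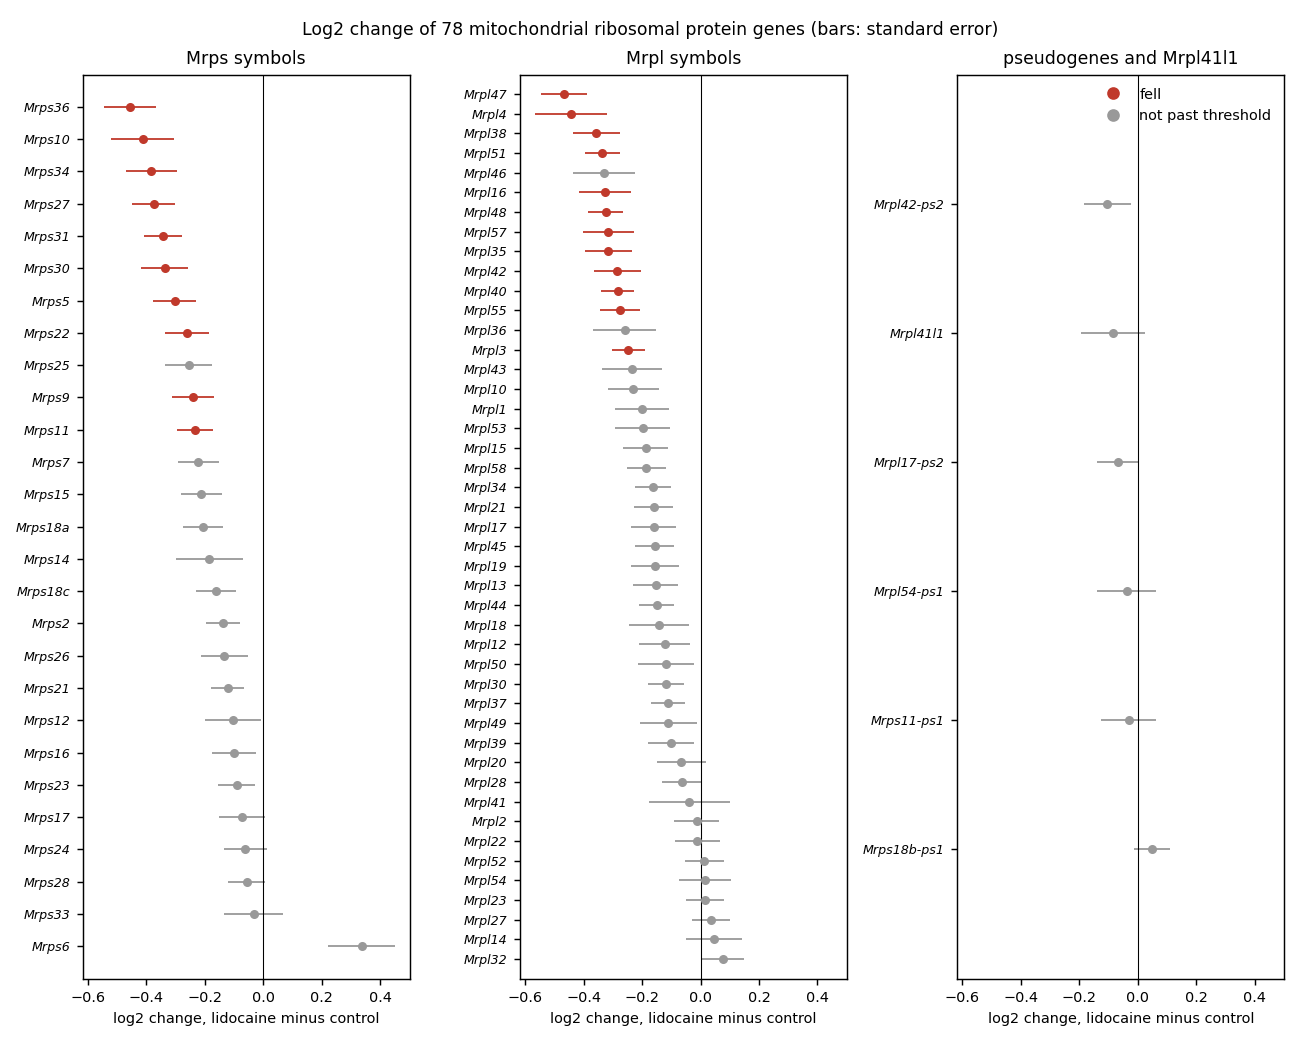
Log2 change, lidocaine minus control, of each of the 78 mitochondrial ribosomal protein genes with its standard error from the moderated fit (3 rats a group). Mrps genes, Mrpl genes and the pseudogenes or copies have a panel each. Most points lie left of 0, and Mrps6 lies farthest to the right at 0.34.

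The calls depended on single rats. Without control rat 2, 7 genes fell, and without control rats 1 or 3 the counts were 13 and 14. Without lidocaine rat 3, 11 fell and 1 rose, and without lidocaine rats 1 or 2 the count was 17 each. The share of all genes dropped as well: without control rat 2, 8.97% of the members and 6.54% of all genes fell, and without lidocaine rat 3, 14.1% and 10.5%. In these 2 fits the members' share was near that of all genes. Without control rats 1 or 3 the shares were 16.7% of the members beside 10.2% of all genes and 17.9% beside 7.83%. Of the 22 genes, 7 passed whichever rat was left out (Mrpl40, Mrpl47, Mrpl48, Mrpl51, Mrps27, Mrps31 and Mrps36), and Mrps11 and Mrps22 passed in no such fit. The median change stayed between −0.12 and −0.20 in these fits.

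By origin, 12 of the 29 proteins without a bacterial counterpart fell (41.4%, median −0.23, Mrps36 included) and 10 of the 43 with one fell (23.3%, median −0.16). The second share is near the 21.3% of genes of like brightness that fell. The 2 groups also differed in brightness, and falls were commoner among brighter genes. In the control rats the mean was 5.73 to 5.80 without a counterpart and 5.46 to 5.54 with one. Without control rat 2 these counts were 6 (20.7%) and 1 (2.33%), beside 6.54% of all genes. The count of those with a counterpart was 2 without lidocaine rat 3 (4.65%, beside 10.5% of all genes). It was 3 without control rat 1 (6.98%, beside 10.2%) and 5 without control rat 3 (11.6%, beside 7.83%). Without control rat 2, lidocaine rat 3 or control rat 1, the share with a counterpart thus lay below that of all genes. With positive-control centring both counts were 1 (3.45% and 2.33%, beside 4.71%). The difference between these groups was not tested.

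The promoter windows of 5 members are shown, each 200 bases from 150 before to 50 after the RefSeq start site in the rat assembly GRCr8. They are those of Mrpl47, with the largest fall, of Mrps27, Mrps10 and Mrps31, which fell, and of Mrps6, with the largest change in the other direction. Capitals mark the letters CCGGAAG (the core bound by ETS factors such as GABP), AAGATGG (the core of YY1 sites) or the NRF1 motif (GCGCA, any base, then GCGC), on either strand. Mrpl47 lies at chr2:117447312-117447511 on the minus strand and Mrps27 at chr2:32474054-32474253 on the plus strand. Mrps10 lies at chr9:21122404-21122603 on the minus strand, Mrps31 at chr16:76324016-76324215 on the minus strand and Mrps6 at chr11:44778517-44778716 on the plus strand.
Mrpl47: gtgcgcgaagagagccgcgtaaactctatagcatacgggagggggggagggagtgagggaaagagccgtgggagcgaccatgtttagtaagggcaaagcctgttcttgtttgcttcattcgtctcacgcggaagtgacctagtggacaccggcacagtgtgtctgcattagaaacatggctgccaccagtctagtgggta
Mrps27: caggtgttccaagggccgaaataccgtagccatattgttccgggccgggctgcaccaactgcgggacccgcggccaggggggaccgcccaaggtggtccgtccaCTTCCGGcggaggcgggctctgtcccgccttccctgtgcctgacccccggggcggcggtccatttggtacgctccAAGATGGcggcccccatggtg
Mrps10: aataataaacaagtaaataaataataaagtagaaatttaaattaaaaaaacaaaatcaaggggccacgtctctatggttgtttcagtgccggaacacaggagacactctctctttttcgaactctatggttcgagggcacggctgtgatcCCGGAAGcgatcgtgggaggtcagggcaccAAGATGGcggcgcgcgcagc
Mrps31: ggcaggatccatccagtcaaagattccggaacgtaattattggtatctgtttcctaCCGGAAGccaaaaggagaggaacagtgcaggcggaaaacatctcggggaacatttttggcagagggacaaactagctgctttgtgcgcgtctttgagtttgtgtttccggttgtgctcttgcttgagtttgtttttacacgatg
Mrps6: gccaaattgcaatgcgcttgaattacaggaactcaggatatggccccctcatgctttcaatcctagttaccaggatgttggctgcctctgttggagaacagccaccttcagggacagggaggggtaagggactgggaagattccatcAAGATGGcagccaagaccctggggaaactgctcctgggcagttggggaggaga
Mrps27 and Mrps10 each hold 1 ETS core and 1 YY1 core in the window, Mrps31 holds 1 ETS core, Mrps6 holds 1 YY1 core and Mrpl47 holds none of the 3 motifs. The fallen genes shown are examples and not the largest falls in order. Mrps27, Mrps10 and Mrps31 all hold the ETS core, which 7 of the 16 fallen genes with a matched promoter held.

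Of the 72 protein genes, 58 matched a RefSeq promoter, from 250 before to 50 after the start. The ETS core was in 19 of the 58 (32.8%), against 8.75% of all 33469 promoters, each counted singly. Counted by gene, as for the members, it was in 16.2% of 9937 measured genes in their brightness range. The YY1 core was in 15 (25.9%), against 7.01% and 8.50%. The NRF1 motif was in 8 (13.8%), against 4.25% and 9.17%. At least 1 of the 3 was in 32 (55.2%), against 18.0% and 29.2%. Among the 16 matched genes that fell, 7 held the ETS core, 5 the YY1 core and 1 the NRF1 motif. Among the 42 that did not pass, the counts were 12, 10 and 7. These are letter matches, not sites shown to be bound, and the difference between the fallen genes and the others was not tested. Of the plainer promoter elements, the GC box GGGCGG was in 48.3% of the 58, CCAAT in 46.6% and TATAAA in 13.8%. These compare with 33.1%, 37.5% and 14.2% of all promoters and 62.0%, 38.1% and 7.75% of genes in the brightness range. The members' share of the GC box thus lay above that of all promoters and below that of genes of like brightness, and their share of TATAAA the other way round.

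Genes of the small subunit, which binds the messenger RNA and decodes it, fell in 10 of 27 cases (37.0%) and rose in 0. Their median log2 change was −0.21. Of genes of like brightness 21.3% fell. By place in the mammalian ribosome in place of the symbol, 8 of 24 fell. By symbol, 4 of 17 with a bacterial counterpart fell and 6 of 10 without one. Those 6 include Mrps30 and Mrps36, which belong to the small subunit by symbol only. Without single rats the count of 10 became 3 (control 2), 5 (lidocaine 3), 6 (control 1 or lidocaine 2) or 7 (lidocaine 1 or control 3), and 1 with positive-control centring. Without control rat 2 the share was 11.1%, beside 6.54% of all genes, and without lidocaine rat 3 it was 18.5%, beside 10.5%.

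Among small-subunit proteins with a bacterial counterpart, Mrps10, a protein of the subunit's head, read 5.34, 5.39 and 5.14 in the lidocaine rats and 5.78, 5.83 and 5.49 in the control rats. Its log2 change was −0.41 ± 0.11 (SE, adjusted p = 0.0286), and the groups came within a small gap of each other. Mrps5, which lies at the entrance for messenger RNA, read 6.02, 5.89 and 5.85 in the lidocaine rats and 6.26, 6.27 and 6.14 in the control rats. It fell by 0.30 ± 0.074 on the log2 scale (adjusted p = 0.0218), with every lidocaine rat below every control rat. Mrps9, another protein of the head, read 5.23, 5.15 and 5.03 in the lidocaine rats and 5.36, 5.45 and 5.32 in the control rats, and had the highest adjusted p of the 22, 0.0479. Mrps11, which lies on the platform beside the messenger RNA exit, read 5.26, 5.32 and 5.29 in the lidocaine rats and 5.58, 5.53 and 5.46 in the control rats (−0.23 ± 0.061, adjusted p = 0.0278). These 4 falls were each lost when some single rat was left out. Mrps12, a protein of the decoding centre, did not pass, at −0.10 (adjusted p = 0.5).

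Among small-subunit genes without a bacterial counterpart, Mrps27, a pentatricopeptide repeat protein of the RNA-binding kind, read 5.59, 5.49 and 5.40 in the lidocaine rats and 5.83, 5.95 and 5.82 in the control rats. It fell by 0.37 ± 0.074 on the log2 scale (adjusted p = 0.0106), and the lowest control rat stood above the highest lidocaine rat. Mrps31 read 4.52, 4.47 and 4.36 in the lidocaine rats and 4.78, 4.79 and 4.80 in the control rats. The control values were nearly equal, and the change was −0.34 ± 0.065 (adjusted p = 0.00915). Both genes passed with any 1 rat left out. Mrps34, which in human cells helps keep the subunit's RNA stable, read 5.30, 5.43 and 5.21 in the lidocaine rats and 5.63, 5.84 and 5.61 in the control rats (−0.38 ± 0.089, adjusted p = 0.0182). It was lost in 1 case, without control rat 2, at an adjusted p of 0.0582. Mrps22, a subunit protein whose loss causes mitochondrial disease in humans, read 6.77, 6.78 and 6.60 in the lidocaine rats and 7.04, 6.97 and 6.92 in the control rats (−0.26 ± 0.074, adjusted p = 0.0375).

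Mrps30 carries a small-subunit symbol but sits in the large subunit of mammals. It read 5.22, 5.11 and 5.12 in the lidocaine rats and 5.42, 5.64 and 5.42 in the control rats, and fell by 0.34 ± 0.079 on the log2 scale (adjusted p = 0.019). Mrps36 read 5.12, 5.16 and 5.01 in the lidocaine rats and 5.54, 5.71 and 5.41 in the control rats, and fell by 0.46 ± 0.089 (adjusted p = 0.0101). RefSeq gives Mrps36 as another name of Kgd4, an adaptor protein of the 2-oxoglutarate dehydrogenase complex of the citric acid cycle, so it is a member by symbol only. A separate row named Kgd4 read 4.75, 4.85 and 4.61 in the lidocaine rats and 5.13, 5.10 and 4.90 in the control rats (−0.31 ± 0.090, adjusted p = 0.0427), likewise with no overlap.

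Genes of the large subunit, which joins amino acids into protein, fell in 12 of 45 cases (26.7%) and rose in 0. Their median log2 change was −0.16. The share is near the 21.3% of genes of like brightness that fell. By place, 13 of 47 fell. By symbol, 6 of 26 with a bacterial counterpart fell and 6 of 19 without one. Without control rat 2 the count was 4, without lidocaine rat 3 it was 6, without control rats 1 or 3 it was 7, and with positive-control centring it was 1. Without control rat 2 the share was 8.89%, beside 6.54% of all genes, and without lidocaine rat 3 it was 13.3%, beside 10.5%. Without control rats 1 or 3 it was 15.6%, beside 10.2% and 7.83% of all genes.

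Mrpl47, a protein at the exit of the tunnel through which the new chain leaves, showed the largest fall of the 78. It read 5.71, 5.62 and 5.45 in the lidocaine rats and 6.08, 6.03 and 6.08 in the control rats. It was 1.38-fold lower after lidocaine (−0.47 ± 0.080, adjusted p = 0.00635), and the gap between the groups exceeded the spread within either. Its promoter, printed above, held none of the 3 motifs. Mrpl4, which lines that tunnel, read 6.28, 5.91 and 6.15 in the lidocaine rats and 6.40, 6.77 and 6.50 in the control rats (−0.44 ± 0.12, adjusted p = 0.0347). Lidocaine rat 1 lay close to control rat 1, and leaving out single rats moved the change between −0.34 and −0.53.

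Mrpl3 and Mrpl16 lie near the peptidyl transferase centre, where peptide bonds form. Mrpl3 read 4.85, 4.81 and 4.83 in the lidocaine rats and 5.07, 5.07 and 5.09 in the control rats, close together within each group, and fell by 0.25 ± 0.055 on the log2 scale (adjusted p = 0.0163). Mrpl16 read 5.35, 5.51 and 5.27 in the lidocaine rats and 5.67, 5.83 and 5.61 in the control rats (−0.33 ± 0.088, adjusted p = 0.0318). Mrpl35 read 6.59, 6.57 and 6.39 in the lidocaine rats and 6.82, 6.93 and 6.75 in the control rats (−0.32 ± 0.081, adjusted p = 0.026), and Mrpl55 changed by −0.28 ± 0.067 (adjusted p = 0.0216). Both are counterparts of small bacterial ribosomal proteins, and neither gene's groups overlapped. Mrpl12, a protein of the stalk that recruits translation factors, did not pass, at −0.12 (adjusted p = 0.385).

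The central protuberance, the crown of the large subunit that faces the small one, holds Mrpl38, Mrpl40, Mrpl46, Mrpl48 and Mrpl58 among others, a grouping made with their values in view. Mrpl48 read 5.24, 5.26 and 5.19 in the lidocaine rats and 5.58, 5.58 and 5.51 in the control rats (−0.32 ± 0.060, adjusted p = 0.00838). Mrpl40 read 5.31, 5.27 and 5.25 in the lidocaine rats and 5.54, 5.59 and 5.55 in the control rats (−0.28 ± 0.057, adjusted p = 0.0113). In both genes the spread within a group was far smaller than the gap between groups. Mrpl38 read 5.74, 5.48 and 5.67 in the lidocaine rats and 5.95, 6.04 and 5.96 in the control rats (−0.36 ± 0.081, adjusted p = 0.0174). Mrpl46 did not pass, with 6.30, 6.39 and 6.03 in the lidocaine rats and 6.52, 6.71 and 6.50 in the control rats (−0.33, adjusted p = 0.0591), although its groups did not overlap. Mrpl58, a peptidyl-tRNA hydrolase that became a ribosomal protein, did not pass either (adjusted p = 0.0873).

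Of the large-subunit proteins found only in mitochondria, Mrpl51 read 6.09, 6.17 and 6.11 in the lidocaine rats and 6.48, 6.49 and 6.41 in the control rats (−0.34 ± 0.060, adjusted p = 0.00762), and passed with any 1 rat left out. Mrpl42, whose row was the brightest of the members, read 8.18, 8.10 and 7.92 in the lidocaine rats and 8.36, 8.32 and 8.38 in the control rats (−0.28 ± 0.079, adjusted p = 0.0354). Both stood clear of the control rats. Mrpl57 read 6.35, 6.31 and 6.23 in the lidocaine rats and 6.68, 6.72 and 6.43 in the control rats (−0.32 ± 0.088, adjusted p = 0.0354). In RefSeq its gene overlaps Ska3, a gene of chromosome segregation that rose, with 5.28, 5.30 and 5.72 in the lidocaine rats and 4.53, 4.49 and 4.58 in the control rats (0.90 ± 0.12, adjusted p = 0.00241). Whether RNA of one gene reaches the other's probes was not tested.

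**Figure D2:**
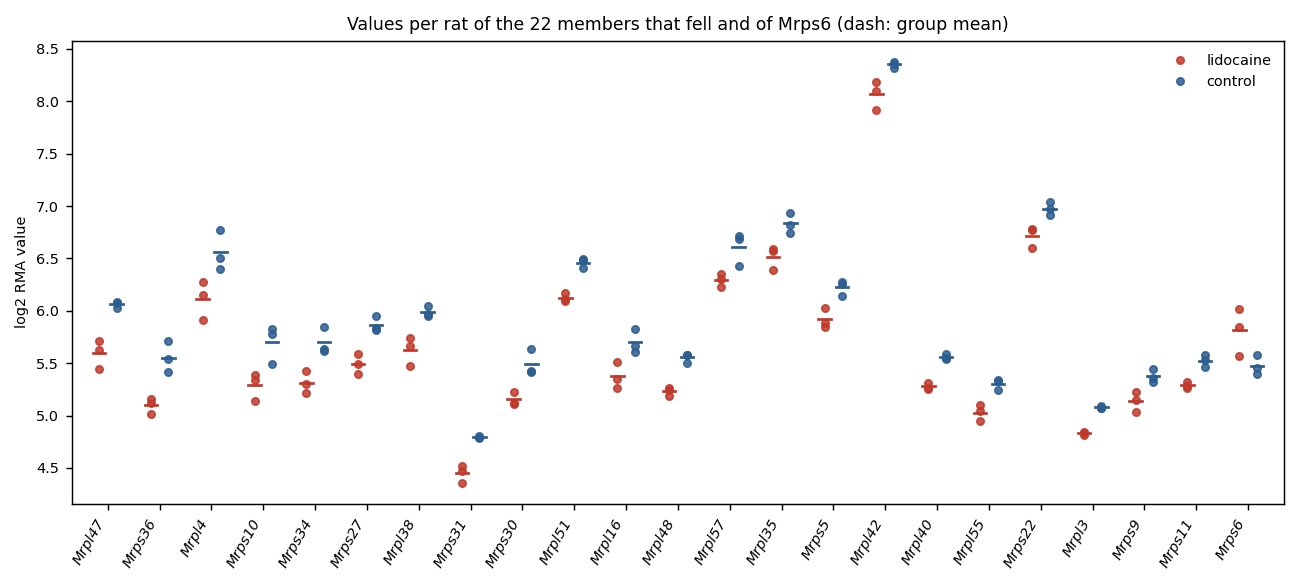
Log2 value of each rat for the 22 genes that fell and for Mrps6, with the 3 lidocaine rats left of the 3 control rats at each gene. In all 22, which were picked by a test on these same values, the lidocaine points lie below the control points. In Mrps6 the groups overlap.

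The other 56 members did not pass. The largest changes below 0 among them were those of Mrpl46, given above, Mrpl36 (−0.26, adjusted p = 0.125), Mrps25 (−0.26, adjusted p = 0.0545), Mrpl43 (−0.23, adjusted p = 0.145) and Mrpl10 (−0.23, adjusted p = 0.1). Mrpl36 had a second row, whose change was −0.14. Mrpl50 and Mrpl44 had the dimmest rows. Mrpl50 read 3.54, 3.89 and 3.68 in the lidocaine rats and 3.87, 3.85 and 3.74 in the control rats, and the groups overlapped. Mrpl44, an RNase III-like protein, read 3.67, 3.76 and 3.67 in the lidocaine rats and 3.86, 3.87 and 3.81 in the control rats. All of its lidocaine values were below its control values, but both genes lay well under the bright end of the negative controls.

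Mrps6, the counterpart of a bacterial small-subunit protein, had the largest change above 0. It read 6.02, 5.84 and 5.57 in the lidocaine rats and 5.40, 5.57 and 5.46 in the control rats (0.34 ± 0.11, adjusted p = 0.0718). Lidocaine rat 3 was level with control rat 2, and without lidocaine rat 3 the adjusted p was 0.0134. It also passed with quantile normalisation (adjusted p = 0.0433), with array weights (adjusted p = 0.016) and with positive-control centring (0.52, adjusted p = 0.00908). In RefSeq the gene overlaps Slc5a3, a transporter of the osmolyte myo-inositol, which read 7.37, 7.18 and 6.79 in the lidocaine rats and 6.26, 6.66 and 6.47 in the control rats (0.65 ± 0.16, adjusted p = 0.0208). Slc5a3 lost its call without lidocaine rat 2, control rat 1 or control rat 3. The rats with the higher Slc5a3 values were also those with the higher Mrps6 values, and the 2 transcripts could not be told apart here. The next largest changes above 0 were those of Mrpl32 (0.08), Mrps18b-ps1 (0.05), Mrpl14 (0.05) and Mrpl27 (0.04), and 3 of these 4 lost their sign under some setting.

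Of the 6 pseudogenes or copies 0 fell and 0 rose, with a median log2 change of −0.05. Mrpl42-ps2 changed by −0.10 where Mrpl42 changed by −0.28, and Mrps11-ps1 by −0.03 where Mrps11 changed by −0.23. Near-identical sequences can share probes, so these rows and those of their parent genes are uncertain. Leaving the copies out, 22 of 72 protein genes fell.

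Some members share a short stretch of DNA with a neighbour read in the opposite direction: 14 such pairs, with start sites at most 500 bases apart, involve 15 members, and 13 pairs had both genes measured. Both log2 changes were below 0 in 7 pairs, both above in 1, and opposite in 5. Of the members 89.7%, and of all tested genes 52.2%, had a change below 0. Whether paired genes move together was not tested. In 2 pairs both genes fell. Mrpl47 starts 244 bases from Ndufb5, a complex I subunit that read 6.53, 6.66 and 6.42 in the lidocaine rats and 6.88, 6.86 and 6.80 in the control rats (−0.31 ± 0.076, adjusted p = 0.0222). The call of Ndufb5 was lost when any 1 rat other than lidocaine rat 2 was left out. In RefSeq Ndufb5 and Mrpl47 also overlap, and whether RNA of one reaches the other's probes was not tested. Mrps27 starts 91 bases from Ptcd2, an RNA-processing factor of mitochondria, which changed by −0.30 ± 0.062 (adjusted p = 0.0129). Mrpl46 and Mrps11, both members, start 234 bases apart. In other pairs, Mrpl51 starts 50 bases from Ncapd2, a condensin subunit whose log2 change was 0.28 (adjusted p = 0.101). Mrpl40 starts 186 bases from the histone chaperone gene Hira, at −0.06 (adjusted p = 0.546).

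Of the mitoribosomal proteins that carry other symbols, 4 were measured, leaving aside Kgd4, which is the gene of Mrps36. Aurkaip1 fell (−0.28, adjusted p = 0.0322), a call that held in 1 of the 6 fits with a rat left out. Chchd1 (−0.23, adjusted p = 0.0872) and the pentatricopeptide protein Ptcd3 (−0.16, adjusted p = 0.147) did not pass. Dap3, a GTP-binding protein of the small subunit also linked to cell death, read 4.93, 4.97 and 4.90 in the lidocaine rats and 4.97, 4.97 and 4.88 in the control rats, so that the groups lay on top of each other.

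Factors that assemble the mitoribosome fell in 9 of 24 cases (37.5%) and rose in 0, with a median log2 change of −0.13. Of all tested genes 14.0% fell, and 21.3% of those at least as bright as the dimmest member. Tfb1m, which methylates the small subunit's RNA, read 6.72, 6.79 and 6.81 in the lidocaine rats and 7.20, 7.35 and 7.22 in the control rats (−0.48, adjusted p = 0.00308). The lowest control rat stood well above the highest lidocaine rat. The RNA helicase Dhx30 (−0.30, adjusted p = 0.00929), the GTPase Mtg1 (−0.32, adjusted p = 0.00982) and Ngrn (−0.42, adjusted p = 0.0112) also fell, and all 4 passed with any 1 rat left out. Oxa1l, which anchors the mitoribosome to the inner membrane, did not pass (−0.08, adjusted p = 0.425). Single rats moved the count of 9 to between 5 and 8, while 6.54% to 11.8% of all genes fell. Positive-control centring gave 1, beside 4.71% of all genes.

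Translation factors of mitochondria fell in 6 of 15 cases (40%), beside 14.0% of all tested genes, and rose in 0. Their median log2 change was −0.22. The fallen ones included the release factor Mtrf1 (−0.49, adjusted p = 0.00496), the formyltransferase Mtfmt (−0.32, adjusted p = 0.0109) and the elongation factor Gfm1 (−0.39, adjusted p = 0.0273). Lrpprc, which stabilises mitochondrial messenger RNA, read 6.83, 6.82 and 6.57 in the lidocaine rats and 7.19, 7.12 and 7.16 in the control rats (−0.42, adjusted p = 0.0106). The elongation factor Tufm did not pass (−0.14, adjusted p = 0.349). Without single rats 3 to 5 fell, beside 6.54% to 11.8% of all genes, and 1 with positive-control centring.

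Of the synthetases that charge mitochondrial tRNAs, 3 of 17 fell, namely Wars2 (−0.48, adjusted p = 0.00745), Hars2 (−0.40, adjusted p = 0.0076) and Gatc, of the enzyme that makes glutaminyl-tRNA (−0.22, adjusted p = 0.0343). Of genes for mitochondrial DNA and RNA 3 of 22 fell: Ptcd2, the elongation factor Tefm (−0.35, adjusted p = 0.0237) and the tRNA-processing enzyme Prorp (−0.35, adjusted p = 0.0416). The RNA polymerase gene Polrmt did not pass (−0.05, adjusted p = 0.595). Those 2 shares, 17.6% and 13.6%, were near the 14.0% of all genes. Without single rats the counts were 2 to 3 and 1 to 3, beside 6.54% to 11.8% of all genes.

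Among 8 measured regulators of mitochondrial biogenesis 1 rose and 1 fell. Ppargc1a, a coactivator that drives the making of mitochondria, read 6.15, 6.24 and 6.0 in the lidocaine rats and 6.76, 6.76 and 6.79 in the control rats (−0.64 ± 0.074, adjusted p = 0.00148). Myc, a growth regulator, read 5.35, 5.59 and 5.32 in the lidocaine rats and 4.6, 4.51 and 4.67 in the control rats (0.83 ± 0.087, adjusted p = 0.00094). Both genes separated the groups by more than the spread within either and passed with any 1 rat left out. Nrf1 (0.17, adjusted p = 0.099) and Gabpa (0.23, adjusted p = 0.126), genes of the factors whose motifs were searched above, did not pass.

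**Figure D3:**
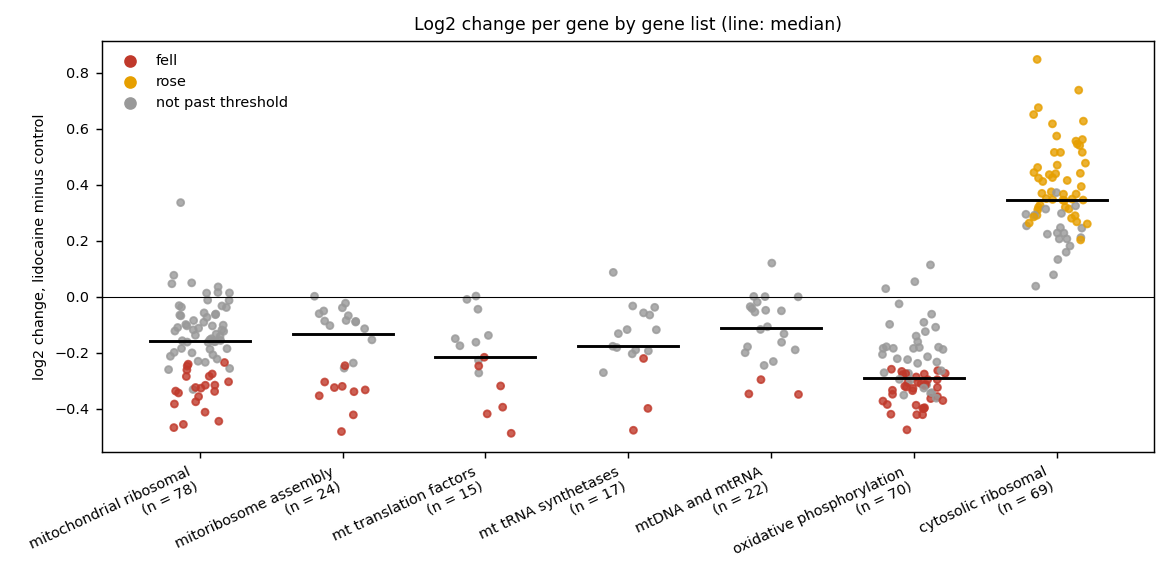
Log2 change, lidocaine minus control, of every measured gene of each list, with a line at the list's median. The cytosolic ribosomal proteins lie above 0 (median 0.35), and the mitochondrial ribosomal proteins (−0.16) and oxidative phosphorylation subunits (−0.29) lie mostly below.

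The cytosolic ribosome, which translates the nuclear genes' messages, moved the other way. Of 69 measured genes of its proteins 49 rose (71.0%) and 0 fell, with a median log2 change of 0.35 and all 69 changes above 0. Their mean was 6.99, 7.22 and 7.15 in the lidocaine rats and 6.76, 6.79 and 6.70 in the control rats, while the mitochondrial set ran lower in the lidocaine rats. Rps2, of the small subunit, read 8.72, 8.80 and 8.90 in the lidocaine rats and 8.09, 8.28 and 8.17 in the control rats (0.63 ± 0.077, adjusted p = 0.00187), and Rplp0, of the stalk, changed by 0.67 (adjusted p = 0.00187). Every lidocaine rat exceeded every control rat in both. Without control rat 3 the count was 22. The cytosolic median stayed above 0 with positive-control centring, at 0.53.

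Oxidative phosphorylation subunits encoded in the nucleus fell in 35 of 70 cases (50%), beside 14.0% of all tested genes, and rose in 0. Their median log2 change was −0.29. Ndufs4, an accessory subunit of complex I, read 7.31, 7.45 and 7.22 in the lidocaine rats and 7.83, 7.82 and 7.75 in the control rats (−0.48 ± 0.076, adjusted p = 0.00508), and Ndufb10, of the same complex, changed by −0.42 (adjusted p = 0.00548). They were 1.39-fold and 1.34-fold lower after lidocaine, next to 1.38-fold for Mrpl47, with no overlap between the groups. The list's mean was 6.27, 6.39 and 6.16 in the lidocaine rats and 6.59, 6.54 and 6.47 in the control rats. The count was 9 without control rat 2, 15 without control rat 1, 18 without control rat 3 and 20 without lidocaine rats 1 or 3, and 3 with positive-control centring. With 1 rat left out 6.54% to 11.8% of all genes fell. Share and median were both larger in size than those of the mitochondrial ribosomal proteins. The lists also differed in brightness, and falls were commoner among brighter genes. In the control rats the means were 6.47 to 6.59 here and 5.52 to 5.59 for the mitochondrial ribosomal proteins. At or above the bright end of the negative controls lay 50 of the 70 and 20 of the 78. The difference between the lists was not tested.

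Markers of several cell types also differed between the groups. Of neuron markers 10 of 12 fell (median −0.48), of oligodendrocyte markers 5 of 8 (median −0.50), and of astrocyte markers 4 of 7 fell and 1 rose (median −0.46). Of microglia and macrophage markers 16 of 16 rose (median 1.51), of neutrophil markers 6 of 8 (median 1.55), and of dividing-cell markers 9 of 9 (median 1.40). Microglia and macrophage markers averaged 6.99 to 7.13 in the lidocaine rats and 5.27 to 5.34 in the control rats, neutrophil markers 5.35 to 5.55 in the lidocaine rats and 3.80 to 4.25 in the control rats, and dividing-cell markers 5.52 to 5.98 in the lidocaine rats and 4.19 to 4.26 in the control rats. Oligodendrocyte markers averaged 8.26 to 8.46 in the lidocaine rats and 8.74 to 8.87 in the control rats, and astrocyte markers 7.71 to 7.97 in the lidocaine rats and 8.05 to 8.17 in the control rats. Schwann-cell markers averaged 7.08 to 7.52 in the lidocaine rats and 7.32 to 7.73 in the control rats, and endothelial markers 5.75 to 5.99 in the lidocaine rats and 5.90 to 6.07 in the control rats, with 0 of 4 and 0 of 5 passing. No list's markers were all at the level of the negative-control median, 2.65 to 2.81. The part of these cell types in the falls of the mitochondrial ribosomal protein genes was not tested.

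**Figure D4:**
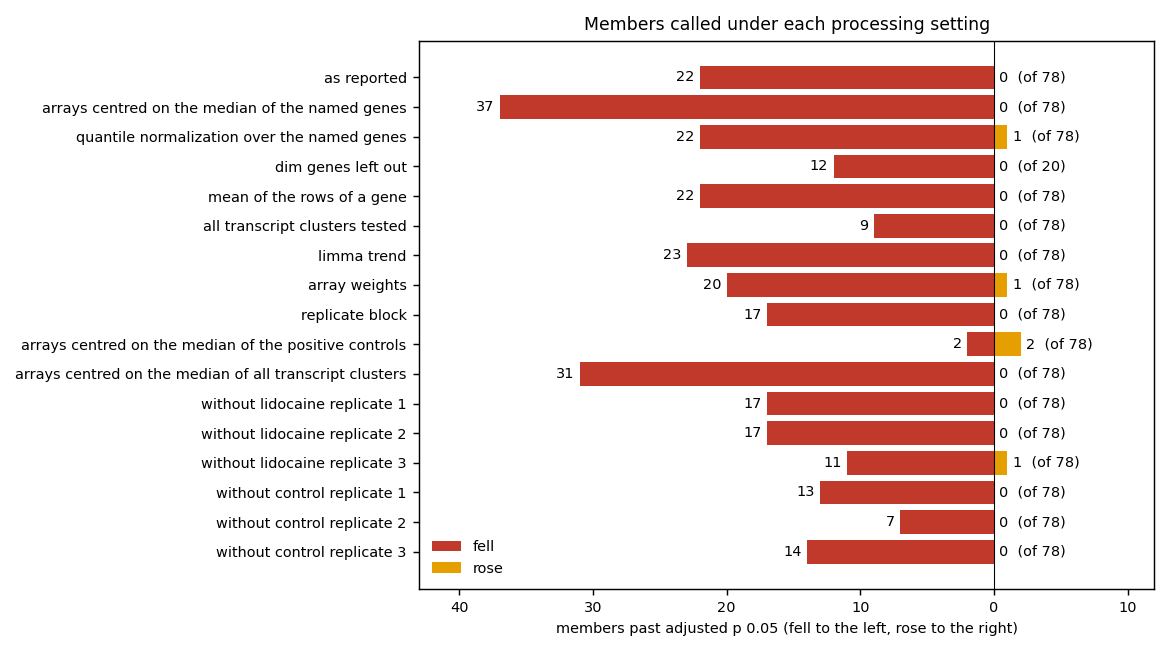
Number of the mitochondrial ribosomal protein genes that fell or rose (horizontal axis, falls to the left and rises to the right of 0) under each processing setting and with each rat left out. Falls outnumber rises in every bar pair except positive-control centring, where there are 2 of each.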

How the data were processed

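Total RNA of the lumbar cord of 6 rats was labelled from 150 ng and read on Affymetrix arrays, 1 per rat, per the labels' protocols. The deposited values are log2 RMA summaries per transcript cluster, per the submitters' processing notes. The software version, array model and genome build were not given in the sources used here. RMA equalises probe distributions, so changes are relative within an array. Of 65527 rows 63789 were transcript clusters, of which 21560 named 1 gene. The brightest cluster per gene was kept, setting aside 1030 and leaving 20530 genes, and 4 rows naming a member beside another gene were not used.

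The sample titles give the groups and the replicate numbers. Lidocaine was compared with control by limma 3.58.1 under R 4.3.3 (linear fit with moderated variances, Benjamini-Hochberg over all 20530 genes, threshold 0.05), the source of every adjusted p. An exact two-sided permutation test of 3 against 3 cannot go below 0.1. Errors after ± are the fit's standard errors. The members and the lists were chosen with earlier results of these data known, so no set test was run. All members were eligible to be named; those named are the ones past the threshold, the 5 largest changes in each direction among the rest, the extremes of brightness and members with several rows, and up to 4 genes of each related list with the smallest p plus 13 of prior interest. Some of these were not analysed here. Genes near a member in RefSeq and proteins named for their role were chosen after their values were seen. Promoter sequences are from RefSeq (GRCr8). The steps were tested on simulated data. The number of arrays limits the precision. Alternatives were other centrings, quantile normalisation, a filter on dim genes, the mean of a gene's rows, all clusters tested, a trended prior, array weights, a replicate block and each rat left out.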

Additional observations from a re-analysis of the deposited data

How the results depend on the processing

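Counts are of mitochondrial ribosomal protein genes that fell, unless another list is named, against 22 as reported. Centring on the median of the named genes gave 37 (small subunit 17, large subunit 20, with a bacterial counterpart 20). Quantile normalisation gave 1 rise, that of Mrps6, in the whole set, the small subunit and the genes with a bacterial counterpart, a small-subunit median of −0.15 and 21 fallen oxidative phosphorylation subunits. Leaving out dim genes gave 12 falls of 20 genes (60%, against 37.1% of all genes kept) with a median of −0.21 (−0.13 over all genes kept) (small subunit 5, large subunit 7, bacterial counterpart 6, mitochondria-specific 6), with fewer genes tested. Testing all clusters left 9 (4, 5 and 1 in the first 3 groups) and 12 oxidative phosphorylation subunits. Array weights gave 1 rise in the set, the small subunit and the genes with a bacterial counterpart, and a small-subunit median of −0.15. Centring on all clusters, added after seeing the data, gave medians of −0.21 for the set and −0.29 for the mitochondria-specific genes.

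Positive-control centring, also added after seeing the data, adds 0.184 to every log2 change alike, so that it turns the sign of any value between that amount below 0 and 0. It moved the median of all genes to 0.17 and gave 2 rises and 2 falls with a median of 0.026, reversed in sign. The small subunit had 1 of each with a median of −0.023, the large subunit 1 of each with a median of 0.025, the genes with a bacterial counterpart 2 rises and 1 fall with a median of 0.025, and the mitochondria-specific genes 1 fall with a median of −0.050. Cytosolic ribosomal proteins had a median of 0.53, and oxidative phosphorylation subunits 1 rise, 3 falls and a median of −0.11. By that shift medians also turned positive for the protein genes (0.022), the copies (0.13), the small subunit by place (0.011), the large subunit by place (0.024), small-subunit genes with a bacterial counterpart (0.021), large-subunit genes with one (0.026), assembly factors (0.050), tRNA synthetases (0.0074), genes of mitochondrial DNA and RNA (0.072) and endothelial markers (0.12), and those of Dap3 (0.18), Ptcd3 (0.024), Polrmt (0.13), Tufm (0.046), Oxa1l (0.099) and Hira (0.12). Why the positive controls differ between the groups was not tested.

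Leaving out 1 rat gave 7 to 17 falls and 0 to 1 rises in the set, with medians of −0.20 to −0.12. The small subunit gave 3 to 7 falls and 0 to 1 rises, the large subunit 4 to 11 falls, the genes with a bacterial counterpart 1 to 7 falls and 0 to 1 rises, and the mitochondria-specific genes 6 to 10 falls with medians of −0.28 to −0.16. Cytosolic ribosomal proteins gave 22 to 58 rises and oxidative phosphorylation subunits 9 to 46 falls.

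Without dim genes 1 biogenesis regulator was left, Ppargc1a, which fell (−0.64), where the median of all 8 was 0.15. Other sign changes, none of them of a value past the threshold, were those of endothelial markers with quantile normalisation (0.0019), Mrps18b-ps1 with quantile normalisation (−0.0083) and all-cluster centring (−0.0037), Mrpl14 with named-gene and all-cluster centring (−0.0014 and −0.0070), Mrpl27 with the same centrings (−0.013 and −0.018), Dap3 with array weights (0.033) and Oxa1l with quantile normalisation (0.0022). With 1 rat left out, Mrpl14 ranged over −0.031 to 0.12, Mrpl27 over −0.0076 to 0.060 and Dap3 over −0.035 to 0.011.

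Same-numbered rats did not clearly deviate together (correlations of −0.06, −0.24 and 0.14 across genes). Different-numbered rats ranged from −0.22 to 0.38. Pairing by number was thus not seen, but 3 rats a group are too few to exclude it. With the replicate number as a block 17 members fell, 16 of them among the 22, and 6 with a bacterial counterpart.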

Other observations

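The 4 rows that named a member together with another gene were tested among all transcript clusters. Their log2 changes were −0.12 for Mrpl53 with Ccdc142, −0.19 for Mrps35 with Klhl42, −0.12 for Mrpl33 with Babam2 and −0.36 for Mrps34 with Nme3, and 0 of the 4 passed (adjusted p of 0.395, 0.373, 0.570 and 0.05). The last of these is close to the row naming Mrps34 alone, at −0.38. All 4 changes lay below 0.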
